A study of Homo sapiens with 15 samples.

Results

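The expression of 10 genes of the Notch pathway was followed in A673 cells, a line established from an Ewing sarcoma, after depletion and rescue of EWS/FLI. The genes were taken as a list of names from the pathway, chosen with earlier results of these data known. They were 10 of the 57820 genes counted in the RNA-seq tables. They were the receptors NOTCH1, NOTCH2 and NOTCH3, the ligands JAG1, JAG2, DLL1 and DLL3, and the effectors HES1, HEY1 and HEY2. EWS/FLI is the fusion protein that drives this tumor and joins the low-complexity EWS domain to the DNA-binding domain of FLI. There were 5 conditions with 3 libraries each, all from this single cell line. In iLuc, a control shRNA against luciferase and an empty vector left the endogenous EWS/FLI in place. The iEF cells received an shRNA against EWS/FLI and the empty vector. The WT-EF, Δ22 and DAF cells carried the EWS/FLI shRNA as well, and a cDNA. In that order, it encoded wildtype EWS/FLI, a form without the EWS domain, or a form with tyrosine to alanine changes in the amino-terminal EWS repeats. Knockdown began on day 1, rescue virus followed on day 5, and cells were selected with 2 µg/mL puromycin and 400 µg/mL hygromycin until day 16.

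Notch receptors are cell surface proteins that are cut when a ligand on a neighboring cell binds them. The cut is made first by an ADAM protease and then by gamma-secretase, and the freed intracellular part enters the nucleus, where it joins the DNA-binding protein RBPJ and a Mastermind coactivator. Several HES and HEY genes, among them HES1, are classical targets of this complex, and encode repressors that bind DNA as basic helix-loop-helix proteins. JAG and DLL proteins are the canonical ligands, although DLL3 acts mainly inside the signal-receiving cell as an inhibitor.

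HES1 and HEY2 are shown by sequence because they are the effectors whose transcripts were higher in iLuc and in WT-EF cells than in iEF cells, and because the 2 windows hold the letters of the RBPJ core. The sequences are the RefSeq promoter windows on build GRCh38.p14, read 5′ to 3′ on the gene's strand and ending just before the start of the gene. The HES1 window lies at chr3:194135898-194136147 on the plus strand. The HEY2 window lies at chr6:125749382-125749634 on the plus strand and runs on a few bases past the start, to complete a match. Capitals mark TGGGAA, the core of the RBPJ site, or CACGCG, a site of HES and HEY proteins, on either strand (read on the printed strand, a match on the other strand is TTCCCA or CGCGTG).
HES1: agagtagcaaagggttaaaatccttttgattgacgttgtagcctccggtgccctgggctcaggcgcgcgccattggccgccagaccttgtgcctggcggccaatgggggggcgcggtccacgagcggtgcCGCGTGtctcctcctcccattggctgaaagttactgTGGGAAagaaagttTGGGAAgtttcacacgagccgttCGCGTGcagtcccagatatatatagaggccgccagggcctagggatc
HEY2: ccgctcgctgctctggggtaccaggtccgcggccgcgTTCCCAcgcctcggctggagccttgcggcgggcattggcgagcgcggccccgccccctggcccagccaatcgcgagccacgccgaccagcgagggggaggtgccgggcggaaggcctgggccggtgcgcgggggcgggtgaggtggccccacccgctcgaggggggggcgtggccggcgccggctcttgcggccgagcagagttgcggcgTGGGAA

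In HES1, TGGGAA began 84 and 70 bases before the start, and CACGCG lay on the minus strand 120 and 47 bases before it. In HEY2, TGGGAA lay 213 bases before the start on the minus strand and again 3 bases before it. Windows of 300 bases, 250 before and 50 after the start, were given for 7 of the 10 genes, and not for DLL1, DLL3 and HEY1. Among the 7, TGGGAA was found in HES1 and HEY2 and in none of NOTCH1, NOTCH2, NOTCH3, JAG1 and JAG2, against 24.0% of 35116 promoters of this length. CACGCG was found 236 bases before the start of JAG2 and 39 bases after the start of JAG1, besides HES1, against 11.4% of all promoters. GGAAGGAA, a GGAA repeat, CCGGAAG, an ETS site, and CACGTG were in none of the 7 windows, against 3.67%, 10.3% and 7.26% of all promoters. The motifs were searched on both strands and do not overlap one another in these windows. A match is a description of letters, not of binding.

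The libraries held between 28659475 and 41859880 counted reads. FLI1 was read as a check on the labels, since the fusion and the cDNAs share its coding 3′ part. It was at 47.8 to 52.4 CPM (counts per 1e6 counts of the scaled library) in iLuc and 12.9 to 15.5 in iEF. In the rescued cells it was at 16.0 to 18.7 in WT-EF, 24.4 to 36.2 in Δ22 and 22.1 to 27.3 in DAF. Reads of the endogenous fusion and of a cDNA cannot be told apart in this count. The shRNA targets the 3′ untranslated region, so counts of a cDNA and of the endogenous transcript need not be on one scale. The FLI1 difference between WT-EF and iEF did not pass the test (adjusted p = 0.0538), so it does not check that label. The Ewing sarcoma markers NR0B1, NKX2-2 and STEAP1 were higher in iLuc than in iEF, while CD99 was at 0 to 3 counts in every library. The WT-EF libraries also held more counts of the first 3 than the iEF libraries. NR0B1 was at 1525 to 2230 counts against 150 to 257, STEAP1 at 5652 to 6748 against 1307 to 1767, and NKX2-2 at 80 to 101 against 30 to 36. The cause of the low CD99 count was not tested, and it is not read as absence of the transcript. Of the markers of other cell types, CD3E and CDH1 were at 0 to 3 counts, PTPRC at 7 to 31 and CDH5 at 2 to 21. EPCAM was at 3 to 33 counts and moved with the comparisons, being higher in iLuc (log2 fold change 2.76) and in WT-EF (1.46) than in iEF. Its part in the results below was not tested. In bulk RNA, fewer expressing cells and less RNA per cell cannot be told apart.

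Adjusted p-values are from edgeR's quasi-likelihood test over 28793 genes with Benjamini-Hochberg adjustment, and a gene was called at an adjusted p under 0.05. All 10 genes averaged at least 1 count per library and were tested. With endogenous EWS/FLI (iLuc against iEF), 5 of the 10 were higher and 3 were lower, against 19.5% of all genes called higher and 22.1% called lower. The median absolute log2 fold change was 1.40 over the 10 genes and 0.69 over all genes. Scaling by library totals in place of TMM moved the median of all genes by 0.21 and gave 7865 genes higher and 5102 lower in place of 5624 and 6368. With WT-EF rescue (WT-EF against iEF), 4 of the 10 were higher and 2 were lower, against 12.9% and 17.0% of all genes, with a median absolute log2 fold change of 0.80 against 0.51. Library totals moved the median there by 0.23 and gave 6376 genes higher and 3412 lower in place of 3704 and 4898. None of the 10 genes reversed a call under either scaling. Both comparisons share the iEF libraries. JAG2 was higher and NOTCH2 and JAG1 were lower in each. HEY1 was lower and NOTCH3 higher in iLuc, and neither was called in WT-EF.

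**Figure D1:**
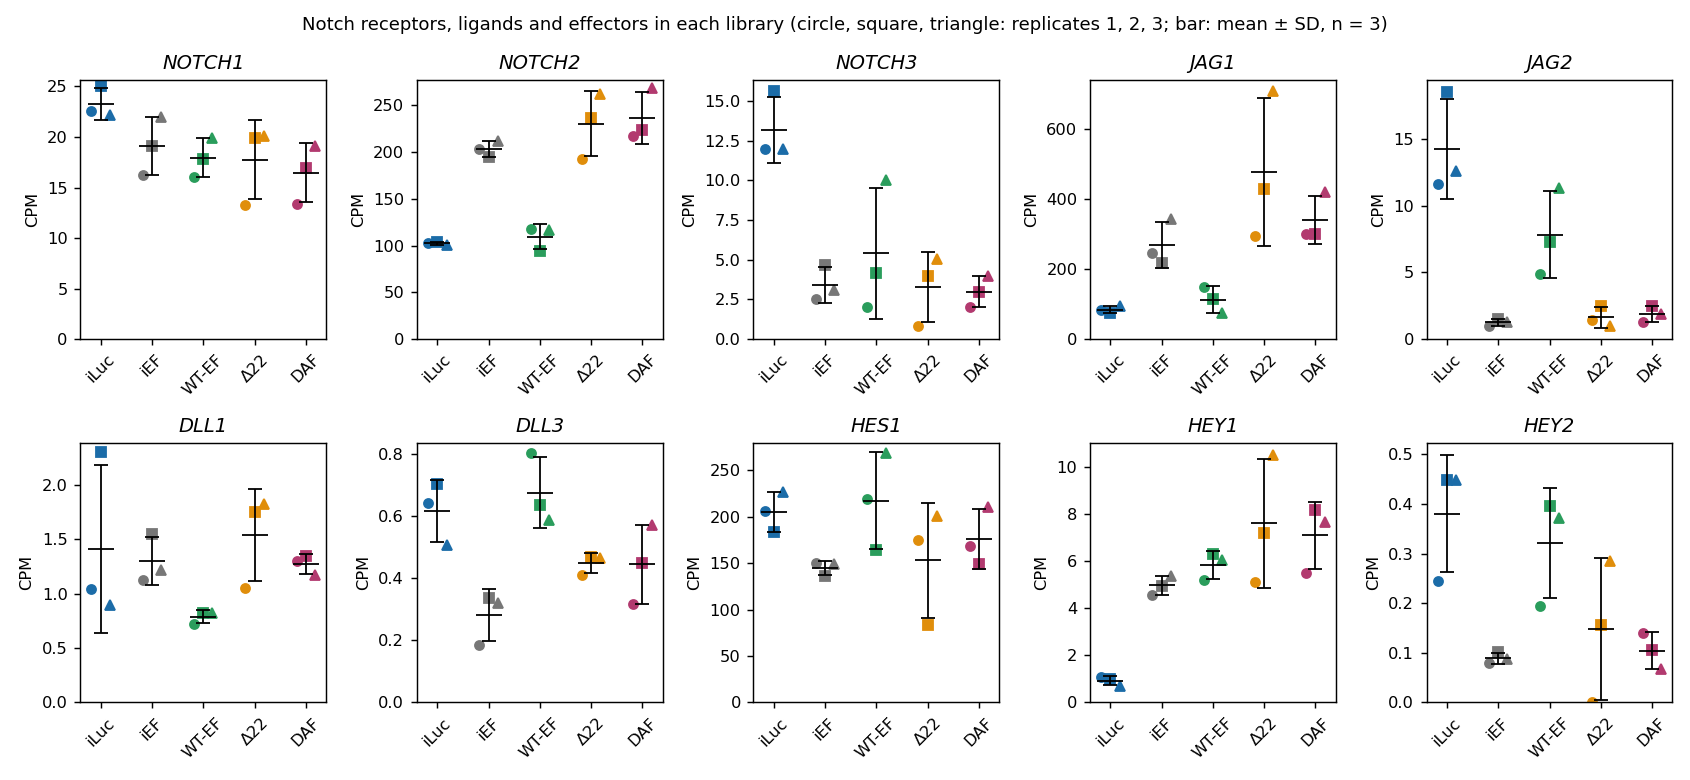
CPM (vertical axis) of the 10 genes in each of the 15 libraries, by condition, where symbols mark replicates and bars the mean ± SD of 3 libraries. NOTCH2 and JAG1 are low in iLuc and WT-EF, JAG2 is high in iLuc and intermediate in WT-EF, and HEY1 is low in iLuc alone.

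Among the receptors, NOTCH2 (ENSG00000134250, GRCh37 chr1:120454176-120643366, minus strand) is the receptor with the highest counts per kb of exon. It was at 102, 104 and 101 CPM in iLuc replicates 1, 2 and 3 and at 203, 195 and 212 in iEF. In the rescued cells it was at 117, 94.5 and 117 CPM in WT-EF, 193, 237 and 262 in Δ22, and 218, 224 and 269 in DAF. Every iLuc and WT-EF library thus lay below every iEF, Δ22 and DAF library. NOTCH2 was 1.98-fold lower in iLuc than in iEF (log2 fold change -0.99 ± 0.10 SE, adjusted p = 2.40e-06). It was 1.86-fold lower in WT-EF than in iEF (log2 fold change -0.89 ± 0.10, adjusted p = 1.43e-05). In WT-EF it differed from iLuc by a log2 fold change of 0.10 with a 95% interval of -0.13 to 0.32. The reference names 4 NOTCH2NL genes, near copies of part of NOTCH2, and 0 of their identifiers are in the count table, so how reads from them were counted is uncertain.

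NOTCH3 (ENSG00000074181, chr19:15269849-15311806, minus strand), a receptor best known from vascular smooth muscle, moved the other way. Its CPM was 12.0, 15.6 and 12.0 in iLuc and 2.50, 4.65 and 3.08 in iEF. The rescued cells gave 2.05, 4.15 and 10.01 CPM in WT-EF, 0.821, 3.96 and 5.07 in Δ22, and 2.00, 2.98 and 3.99 in DAF. The iLuc libraries lay above all others, and WT-EF replicate 3 stood well above the other two WT-EF libraries. NOTCH3 was 4.05-fold higher in iLuc than in iEF (log2 fold change 2.02 ± 0.40, adjusted p = 0.000778). The WT-EF difference from iEF was 0.49 with an interval of -0.37 to 1.35 (adjusted p = 0.418). NOTCH1 (ENSG00000148400, chr9:139388885-139440500, minus strand) was at 22.5, 25.1 and 22.2 CPM in iLuc and 16.2, 19.1 and 22.02 in iEF. It was at 16.0, 17.9 and 19.9 in WT-EF, 13.3, 19.9 and 20.1 in Δ22 and 13.4, 17.0 and 19.1 in DAF. The difference of 0.30 ± 0.12 between iLuc and iEF did not pass the test (adjusted p = 0.0590), although the 2 conditions did not overlap. It was called as higher in 7 of 17 alternatives. These were library totals, where the log2 fold change was 0.51 (adjusted p = 0.00369), limma on the ComBat-adjusted values (0.44, adjusted p = 0.0162), DESeq2 (adjusted p = 0.0418), DESeq2 size factors in edgeR (adjusted p = 0.0498), the filterByExpr filter (adjusted p = 0.0381), and leaving out iLuc replicate 3 (0.39, adjusted p = 0.0175) or replicate 3 of all conditions (0.41, adjusted p = 0.0221).

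Of the ligands, JAG2 (ENSG00000184916, chr14:105607319-105635161, minus strand) had the widest range of condition means among the 10 genes. It was at 11.6, 18.5 and 12.6 CPM in iLuc and 0.946, 1.48 and 1.31 in iEF. In the rescued cells it was at 4.87, 7.24 and 11.3 CPM in WT-EF, 1.47, 2.48 and 0.965 in Δ22, and 1.30, 2.48 and 1.88 in DAF. WT-EF lay between iLuc and the remaining conditions, with no overlap on either side. JAG2 was 11.4-fold higher in iLuc than in iEF (log2 fold change 3.51 ± 0.29, adjusted p = 2.17e-07). It was 6.26-fold higher in WT-EF than in iEF (log2 fold change 2.65 ± 0.29, adjusted p = 7.43e-06). An annotated gene on the same strand overlaps JAG2 over 16631 bases.

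JAG1 (ENSG00000101384, chr20:10618332-10654647, minus strand), the other Jagged ligand, was lower, not higher, in iLuc and in WT-EF than in iEF. It was at 84.3, 75.6 and 93.1 CPM in iLuc and 247, 216 and 343 in iEF. In WT-EF it was at 149, 114 and 74.4 CPM, in Δ22 at 294, 428 and 708, and in DAF at 301, 299 and 419. The WT-EF libraries overlapped iLuc, and both stayed below every iEF, Δ22 and DAF library. JAG1 was 3.14-fold lower in iLuc than in iEF (log2 fold change -1.65 ± 0.27, adjusted p = 0.000153). It was 2.29-fold lower in WT-EF than in iEF (log2 fold change -1.19 ± 0.27, adjusted p = 0.00335).

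The Delta-like ligands were scarce. DLL3 (ENSG00000090932, chr19:39989535-39999121, plus strand) held 7 to 29 counts per library. It was at 0.642, 0.701 and 0.507 CPM in iLuc, 0.184, 0.337 and 0.320 in iEF and 0.803, 0.634 and 0.586 in WT-EF. All iLuc and WT-EF libraries thus exceeded those of iEF. DLL3 was higher in iLuc (log2 fold change 1.15 ± 0.34, adjusted p = 0.0132) and in WT-EF (1.28 ± 0.33, adjusted p = 0.00903) than in iEF. The iLuc call was lost without iLuc replicate 1 or 2, without iEF replicate 1, and without replicate 1 or 2 of all conditions, with log2 fold changes of 0.86 to 1.20 and adjusted p between 0.0505 and 0.155. The WT-EF call was lost without iEF replicate 1 and without replicate 1 or 2 of all conditions, with log2 fold changes of 0.89 to 1.47 and adjusted p between 0.0569 and 0.172. DLL1 (ENSG00000198719, chr6:170591294-170615653, minus strand) held 26 to 82 counts and was called in no comparison with iEF. Its WT-EF libraries, at 0.720 to 0.825 CPM, lay below all iEF libraries, at 1.13 to 1.55 (log2 fold change -0.71 ± 0.29, adjusted p = 0.0818). DLL1 overlaps FAM120B on the opposite strand over 15863 bases, and the strand setting of the counting is not given in the sources used here.

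**Figure D2:**
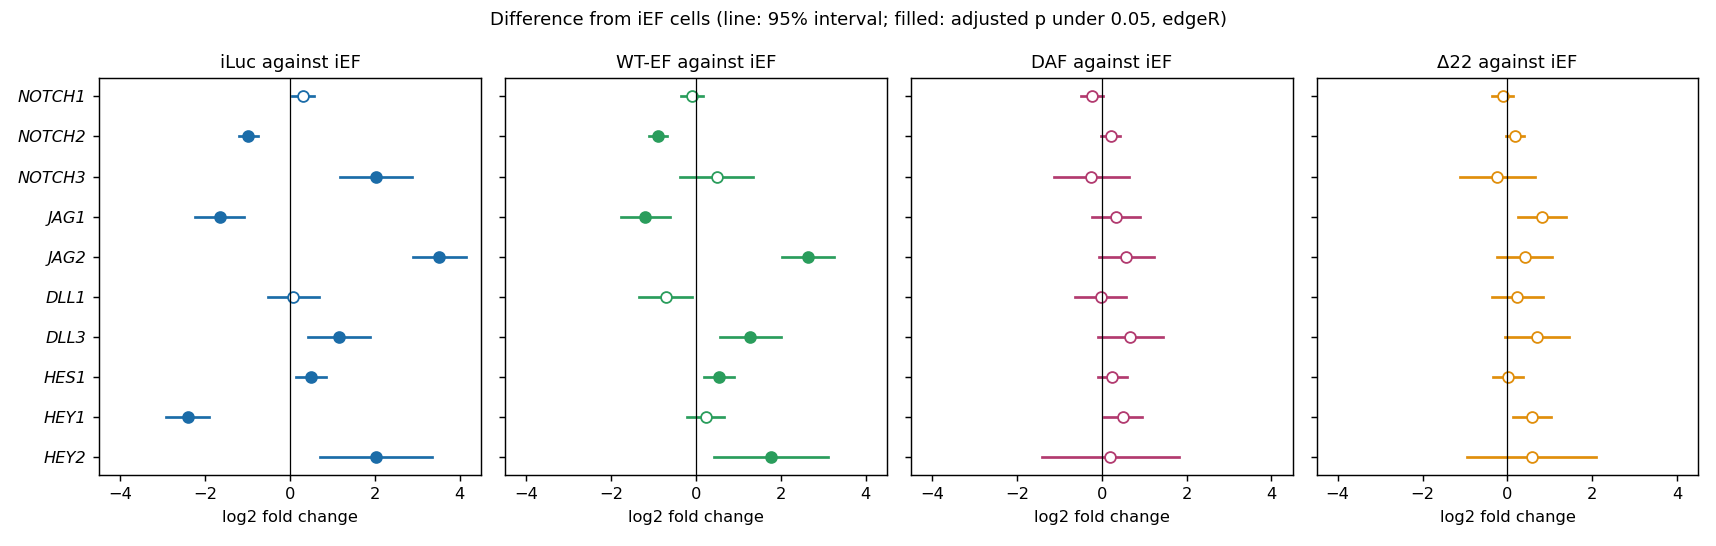
Log2 fold change against iEF (horizontal axis) of each gene in iLuc, WT-EF, DAF and Δ22, with 95% intervals as lines and filled points for genes called at an adjusted p under 0.05. There are 8 filled points in iLuc, 6 in WT-EF and 0 in DAF and in Δ22.

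The effectors did not move together. HES1 (ENSG00000114315, chr3:193853937-193856521, plus strand), a repressor of differentiation genes, had the highest mean of the 10 per kb of exon in every condition. In Δ22 replicate 2, JAG1 exceeded HES1 (46.0 against 40.4 CPM per kb). HES1 was thus not the highest in every library. It was at 206, 183 and 226 CPM in iLuc and 150.4, 136 and 149 in iEF. It was at 219, 164 and 269 CPM in WT-EF, 175, 83.2 and 201 in Δ22 and 168, 149 and 211 in DAF. The iLuc and WT-EF libraries lay above those of iEF. HES1 was 1.40-fold higher in iLuc (log2 fold change 0.49 ± 0.16, adjusted p = 0.0249) and 1.46-fold higher in WT-EF (0.54 ± 0.16, adjusted p = 0.0199) than in iEF. Without the replicate block, neither passed the test (adjusted p = 0.121 in iLuc and 0.0946 in WT-EF). The iLuc call was lost without iLuc replicate 2, without iEF replicate 1 or 3, and without replicate 1 or 3 of all conditions (log2 fold changes of 0.34 to 0.50, adjusted p from 0.0624 to 0.152), and the WT-EF call without iEF replicate 1 or 3 and without replicate 1 or 3 of all conditions (0.41 to 0.54, adjusted p from 0.0649 to 0.121).

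HEY1 (ENSG00000164683, chr8:80674606-80680092, minus strand), a repressor known from vascular and cardiac development, was lower with endogenous EWS/FLI and was not called with the rescue. It was at 1.07, 0.982 and 0.716 CPM in iLuc and 4.55, 4.96 and 5.38 in iEF. The rescued cells gave 5.18, 6.29 and 6.04 CPM in WT-EF, 5.10, 7.17 and 10.5 in Δ22 and 5.48, 8.15 and 7.65 in DAF. Each iLuc library lay below all 12 others. HEY1 was 5.32-fold lower in iLuc than in iEF (log2 fold change -2.41 ± 0.24, adjusted p = 1.15e-06). In WT-EF it differed from iEF by 0.23 with an interval of -0.21 to 0.67, and it was called only with limma on the ComBat-adjusted values (0.41, adjusted p = 0.0398).

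HEY2 (ENSG00000135547, chr6:126068810-126082415, plus strand), a relative of HEY1, was near the limit of counting at 0 to 16 counts per library. The counts were 8, 16 and 15 in iLuc, 3, 3 and 3 in iEF, 7, 15 and 14 in WT-EF, 0, 6 and 8 in Δ22 and 4, 4 and 2 in DAF. The iLuc and WT-EF libraries lay above those of iEF. From the 39 counts of iLuc against 9 of iEF, scaled to library size, the ratio was 4.34 with a 95% exact interval of 2.07 to 10.2, and from the 36 of WT-EF it was 3.66 with an interval of 1.73 to 8.65, both covering counting error only. HEY2 was called in iLuc (adjusted p = 0.0161) and in WT-EF (adjusted p = 0.0447). The iLuc call was lost without iEF replicate 2 or 3 and without replicate 2 or 3 of all conditions (log2 fold changes of 1.80 to 1.98, adjusted p from 0.0539 to 0.143). The WT-EF call was lost without the replicate block (adjusted p = 0.0579), with DESeq2 (adjusted p = 0.0505), without replicate 2 or 3 of all conditions, and without any single library of iEF or WT-EF (log2 fold changes of 1.56 to 2.00, adjusted p from 0.0689 to 0.262). HEY2-AS1 overlaps HEY2 on the opposite strand over 1527 bases.

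The Δ22 form, which keeps the DNA-binding domain but not the EWS domain, asks what the FLI part does alone. Against iEF, 0 of the 10 genes were higher and 0 were lower with edgeR, against 0.472% and 0.830% of all genes. Library totals gave 169 genes higher and 173 lower in place of 136 and 239. At an unadjusted p under 0.05 there were 2, JAG1 and HEY1, and DESeq2 called 1. JAG1 had a log2 fold change of 0.81 with an interval of 0.24 to 1.37 (adjusted p = 0.162), and its Δ22 libraries overlapped those of iEF. It was called with no filter on low counts, with DESeq2 (adjusted p = 0.0461), in a fit of the 6 libraries alone (adjusted p = 0.0295), without Δ22 replicate 1 (1.10, adjusted p = 0.0422) and without replicate 3 of all conditions (0.66). FLI1 counts were higher in Δ22 than in iEF (log2 fold change 1.09, adjusted p = 0.000446), and their part in these values was not tested.

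The DAF form asks which responses need the tyrosines of the amino-terminal EWS repeats. It keeps other tyrosines of the EWS domain. Against iEF, 0 of the 10 genes were higher and 0 lower with edgeR, against 5.00% and 6.19% of all genes. Library totals gave 1941 genes higher and 1290 lower in place of 1440 and 1783. At an unadjusted p under 0.05 there was 1, HEY1 (log2 fold change 0.50, interval 0.06 to 0.94), which limma on the ComBat-adjusted values called (adjusted p = 0.0451), and DESeq2 called 0. The DAF libraries of HEY1 and of NOTCH2 lay above all iEF libraries. JAG2 differed from iEF by 0.58 with an interval of -0.06 to 1.23, and JAG1 by 0.34 with an interval of -0.22 to 0.91. In a fit of the 6 libraries alone, JAG1 was called (0.37, adjusted p = 0.00727). Between DAF and Δ22, 0 of the 10 were higher and 0 lower with edgeR, 0 had an unadjusted p under 0.05 and DESeq2 called 0, against 0.948% and 0.379% of all genes. For JAG1 the difference of DAF from Δ22 was -0.47 with an interval of -1.03 to 0.10, and for JAG2 it was 0.18 with an interval of -0.45 to 0.81.

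WT-EF and DAF were compared directly. Of the 10 genes, 1 was higher and 2 were lower in WT-EF, against 12.4% and 16.1% of all genes. Library totals gave 2 of the 10 higher and 2 lower, and 5208 genes higher and 3529 lower in place of 3573 and 4628 over all genes, with a shift of the median of 0.15. JAG2 was 4.18-fold higher in WT-EF than in DAF (log2 fold change 2.06 ± 0.28, adjusted p = 7.61e-05). NOTCH2 was 2.15-fold lower (-1.11 ± 0.10, adjusted p = 5.43e-06) and JAG1 2.90-fold lower (-1.54 ± 0.27, adjusted p = 0.000607). For these genes no WT-EF library overlapped a DAF library. HEY2 (1.57 ± 0.62, adjusted p = 0.0750) was called as higher in WT-EF in 3 of 17 alternatives. These were library totals (adjusted p = 0.0493) and leaving out DAF replicate 1 (2.11) or replicate 1 of all conditions (2.06, adjusted p = 0.0344). FLI1 counts were lower in WT-EF than in DAF (log2 fold change -0.47, adjusted p = 0.00264), and their part was not tested.

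WT-EF and iLuc differ in the source of EWS/FLI, rescue or endogenous, and in the shRNA. They also differ in the depletion before rescue, which iLuc cells did not have. These cannot be told apart here. In WT-EF, 1 of the 10 genes was higher and 3 were lower than in iLuc, against 10.7% and 9.03% of all genes. HEY1 was 6.24-fold higher in WT-EF (log2 fold change 2.64 ± 0.24, adjusted p = 5.95e-06). The lower genes were NOTCH3 (-1.53 ± 0.39, adjusted p = 0.0131), JAG2 (-0.87 ± 0.25, adjusted p = 0.0263) and NOTCH1 (-0.39 ± 0.12, adjusted p = 0.0341), and all 3 calls were lost without the replicate block (adjusted p = 0.121, 0.0937 and 0.165). Leaving out iLuc replicate 1, WT-EF replicate 1 or 2, or replicate 1 or 2 of all conditions ended each of the 3 calls, at -1.38 to -1.01 for NOTCH3 (adjusted p from 0.0836 to 0.184), -0.78 to -0.63 for JAG2 (0.109 to 0.317) and -0.38 to -0.25 for NOTCH1 (0.0682 to 0.290). Leaving out iLuc replicate 2 ended the calls of JAG2 and NOTCH1 as well, and leaving out WT-EF replicate 3 that of NOTCH1. NOTCH1 was also not called with library totals (adjusted p = 0.0525), with no filter on low counts (0.0695), with limma on the ComBat-adjusted values (0.122) or in a fit of the 6 libraries alone (0.138), and its call held in 5 of 17 alternatives. JAG1 was not called (0.46, adjusted p = 0.267), but was called as higher in WT-EF in 3 of 17 alternatives. These were no filter on low counts (0.48, adjusted p = 0.00418) and leaving out WT-EF replicate 3 (0.87, adjusted p = 0.00156) or replicate 3 of all conditions (0.79, adjusted p = 0.00095). DLL1 was not called (-0.79, adjusted p = 0.0723), but was called as lower without iLuc replicate 3 (-0.99). FLI1 counts in WT-EF were below those of iLuc in every library, but cDNA and endogenous counts need not be on one scale. Their part was not tested.

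**Figure D3:**
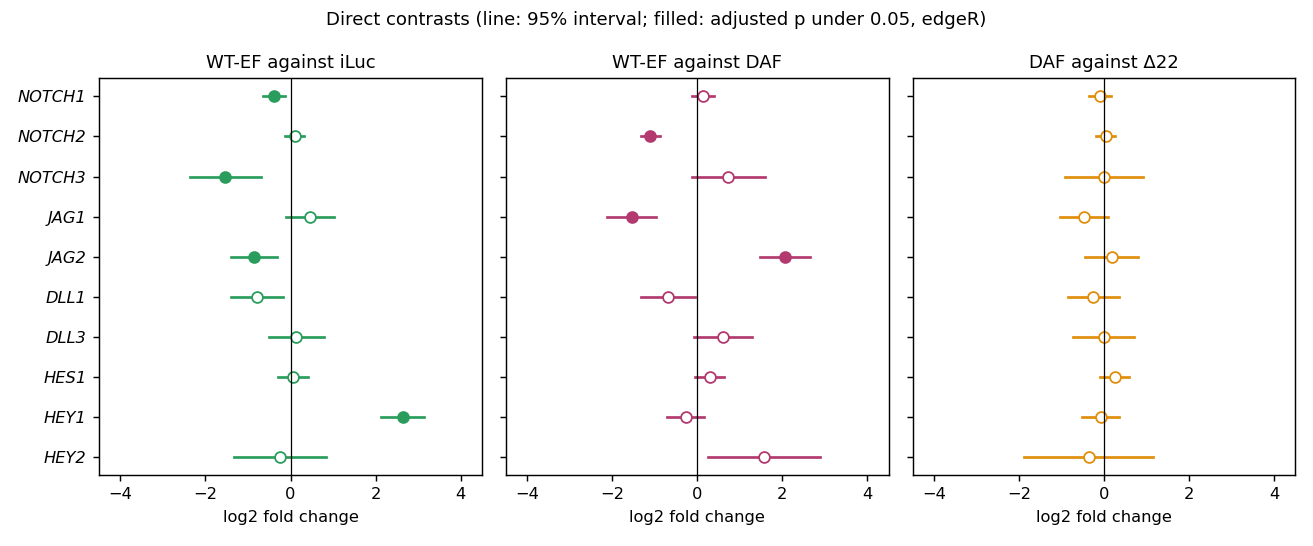
Log2 fold change (horizontal axis) of each gene in WT-EF against iLuc, WT-EF against DAF and DAF against Δ22, with 95% intervals as lines and filled points for called genes. Among the filled points, HEY1 stands alone on the higher side of WT-EF against iLuc and JAG2 on that of WT-EF against DAF. Open points lie on the higher side of both as well. No point is filled in DAF against Δ22.

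Ratios within a library do not depend on its scaling. Per kb of exon, JAG1 exceeded JAG2 by 2.80 to 5.10 times in iLuc, 100.3 to 180.2 times in iEF and 4.53 to 21.1 times in WT-EF. In Δ22 the ratio was 119 to 505, and in DAF 83.0 to 159. The iLuc and WT-EF libraries thus overlapped each other and lay below all others. NOTCH2 exceeded NOTCH3 by 3.73 to 4.80 times in iLuc and 23.5 to 45.7 times in iEF, with WT-EF between 6.58 and 32.2. HES1 exceeded HEY1 by 497 to 842 times in iLuc and 73.3 to 88.2 times in iEF, with WT-EF between 69.3 and 118.

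**Figure D4:**
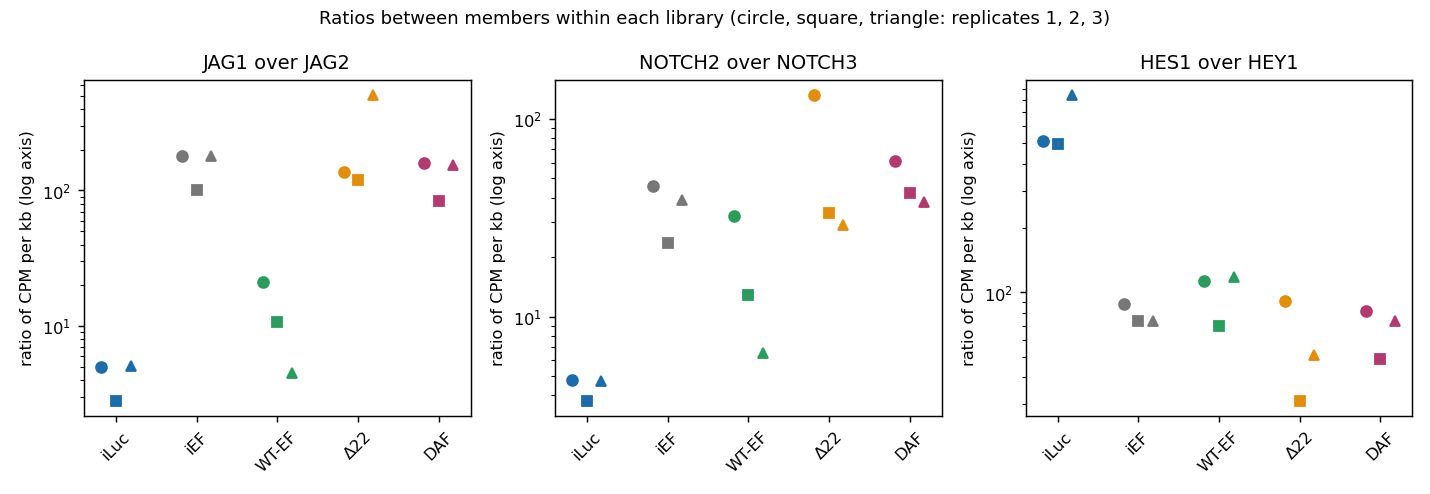
Ratio of 2 genes in CPM per kb of exon (vertical log axis) in each library, by condition, for JAG1 over JAG2, NOTCH2 over NOTCH3 and HES1 over HEY1. The first ratio stays at or below 21.1 in iLuc and WT-EF and at or above 83.0 in the other conditions.

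The rest of the pathway was read from a list of 50 further genes, all tested, set by role. In iLuc against iEF, 7 of the 50 were higher and 19 lower, which is 14% and 38% of the list against 19.5% and 22.1% of all genes. In WT-EF against iEF 7 were higher and 18 lower, which is 14% and 36% against 12.9% and 17.0% of all genes. With library totals in place of TMM these counts were 11 higher and 13 lower in iLuc, and 11 higher and 10 lower in WT-EF. Proteases were lower or not called, with 6 of 9 lower and 0 higher in each comparison (5 and 4 lower and 0 higher with library totals), beside the 22.1% and 17.0% of all genes called lower. ADAM10, the protease that makes the first cut, was at 152, 175 and 165 CPM in iLuc and 536, 478 and 539 in iEF, and fell by 1.66 on the log2 scale in iLuc (adjusted p = 4.72e-08). It was at 193, 211 and 161 CPM in WT-EF, where it fell by 1.46 (adjusted p = 5.23e-07). FURIN, which cleaves the receptor during its maturation, fell by 1.20 in iLuc and by 0.55 in WT-EF. The WT-EF call held in 12 of 17 alternatives, and was lost with library totals, with limma on the ComBat-adjusted values, without WT-EF replicate 3 (-0.36, adjusted p = 0.0563) and without replicate 2 or 3 of all conditions.

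Among the glycosyltransferases that modify the receptor, 3 of 5 were lower in each comparison, beside 22.1% of all genes in iLuc and 17.0% in WT-EF. They included POGLUT1 (log2 fold change -0.79 in iLuc and -0.43 in WT-EF) and RFNG (-0.55 and -0.53). In WT-EF each of these calls held in 10 of 17 alternatives, with log2 fold changes of -0.51 to -0.18 and adjusted p up to 0.247 for POGLUT1, and of -0.58 to -0.27 and up to 0.149 for RFNG. Of the single libraries, leaving out iEF replicate 1 or WT-EF replicate 3 ended the call of POGLUT1 (-0.39 and -0.26) and leaving out WT-EF replicate 1 that of RFNG (-0.49). In iLuc the POGLUT1 call held in 17 of 17 alternatives and the RFNG call in 14 of 17, being lost with library totals (adjusted p = 0.0875) and without replicate 1 or 2 of all conditions. With library totals 2 were lower in iLuc, and 1 was lower and 1 higher in WT-EF. Of the 12 ubiquitin and endocytosis genes, 4 were higher and 4 lower in iLuc (4 and 1 with library totals), beside 19.5% and 22.1% of all genes. DTX3 was at 0.99 there, while DTX4 at -1.20 was not called (adjusted p = 0.150) except in 3 of 17 alternatives. In the nuclear complex, 1 of 12 was higher and 4 lower in iLuc (5 and 3 with library totals), beside the same shares of all genes. In WT-EF 4 of 12 were higher and 3 lower (5 and 3 with library totals), beside 12.9% and 17.0% of all genes. MAML2, a Mastermind coactivator, was at 12.4, 12.7 and 11.4 CPM in iLuc, 65.5, 75.5 and 68.9 in iEF and 33.5, 30.7 and 28.8 in WT-EF. It fell by 2.52 on the log2 scale in iLuc (adjusted p = 1.18e-09) and by 1.17 in WT-EF (adjusted p = 1.62e-06). KAT2B, an acetyltransferase, fell by 0.98 and by 0.85. MAML1, another Mastermind coactivator, named after its values were seen, lay the other way from MAML2. It was at 34.1, 38.3 and 34.7 CPM in iLuc, 23.8, 27.7 and 29.4 in iEF and 34.9, 43.0 and 45.2 in WT-EF. The other receptors and ligands were largely not called, with DNER at 0.42 and NOTCH4 at 0.04 in iLuc.

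Of the 7 genes listed as other targets, 2 were higher and 1 lower in iLuc, beside 19.5% and 22.1% of all genes. Whether each of them answers to Notch in these cells was not tested. NRARP, a feedback inhibitor that acts on the RBPJ complex, was at 4.86, 7.85 and 5.88 CPM in iLuc, 0.368, 0.506 and 0.582 in iEF and 1.38, 2.33 and 3.43 in WT-EF. It was 12.9-fold higher in iLuc (log2 fold change 3.69 ± 0.34, adjusted p = 6.09e-07) and 4.75-fold higher in WT-EF (2.25 ± 0.34, adjusted p = 0.000154) than in iEF. HES6 was higher in iLuc than in iEF (2.43, adjusted p = 1.87e-06), and was not called in WT-EF (0.64, adjusted p = 0.0740) except with library totals (0.88, adjusted p = 0.0198) and without WT-EF replicate 1 (0.84, adjusted p = 0.0343). It was lower in DAF (-1.10, adjusted p = 0.0237), a call that held in 9 of 17 alternatives. That call was lost with limma on the ComBat-adjusted values, without any single iEF library, without DAF replicate 1 or 2 and without replicate 1 or 2 of all conditions (-1.15 to -0.76, adjusted p up to 0.265). The lower gene, HES2, named after its values were seen, had 0 counts in all 3 iLuc libraries and 24 to 53 in iEF.

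In DAF against iEF, 6 of the 50 were higher and 6 lower, which is 12% each against 5.00% and 6.19% of all genes. Leaving out libraries gave 1 to 5 higher and 0 to 3 lower, with 3 higher without any one DAF library, 0 lower without iEF replicate 3, 1 lower without iEF replicate 1 or DAF replicate 1 or 2, and 3 lower without iEF replicate 2 or DAF replicate 3. NRARP (1.28, adjusted p = 0.0329) was called in 8 of 17 alternatives (adjusted p up to 0.347), and its call was lost without the replicate block (adjusted p = 0.141), with limma on the ComBat-adjusted values, without any single library of iEF or DAF and without replicate 2 of all conditions. For NRARP, Δ22 differed from iEF by 1.18 (adjusted p = 0.131, called in 3 of 17 alternatives) and DAF from Δ22 by 0.10 (adjusted p = 0.967). WT-EF exceeded DAF for NRARP by 0.97 (adjusted p = 0.0306), a call that held in 9 of 17 alternatives. ADAM10 (-0.48, adjusted p = 0.0135) was called in 11 of 17 alternatives (adjusted p up to 0.190), and its call was lost without iEF replicate 1 or 3, without DAF replicate 1 or 2 and without replicate 1 or 2 of all conditions (-0.49 to -0.41). In Δ22 against iEF, 1 was higher (NUMB) and 1 lower (NEURL1B), or 2% each against 0.472% and 0.830% of all genes, and in DAF against Δ22, 1 was higher (DTX1) and 0 lower, or 2% and 0% against 0.948% and 0.379%. These 3 were named after their values were seen. WT-EF exceeded DAF for 4 of the 50 and lay below it for 12 (8% and 24% against 12.4% and 16.1% of all genes), with MAML2 at -1.26 (adjusted p = 2.83e-06) and HES6 at 1.74 (adjusted p = 0.000302). Against iLuc, WT-EF was higher for 10 and lower for 7 (20% and 14% against 10.7% and 9.03% of all genes), with MAML2 at 1.35, HES6 at -1.79 and NRARP at -1.44.

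**Figure D5:**
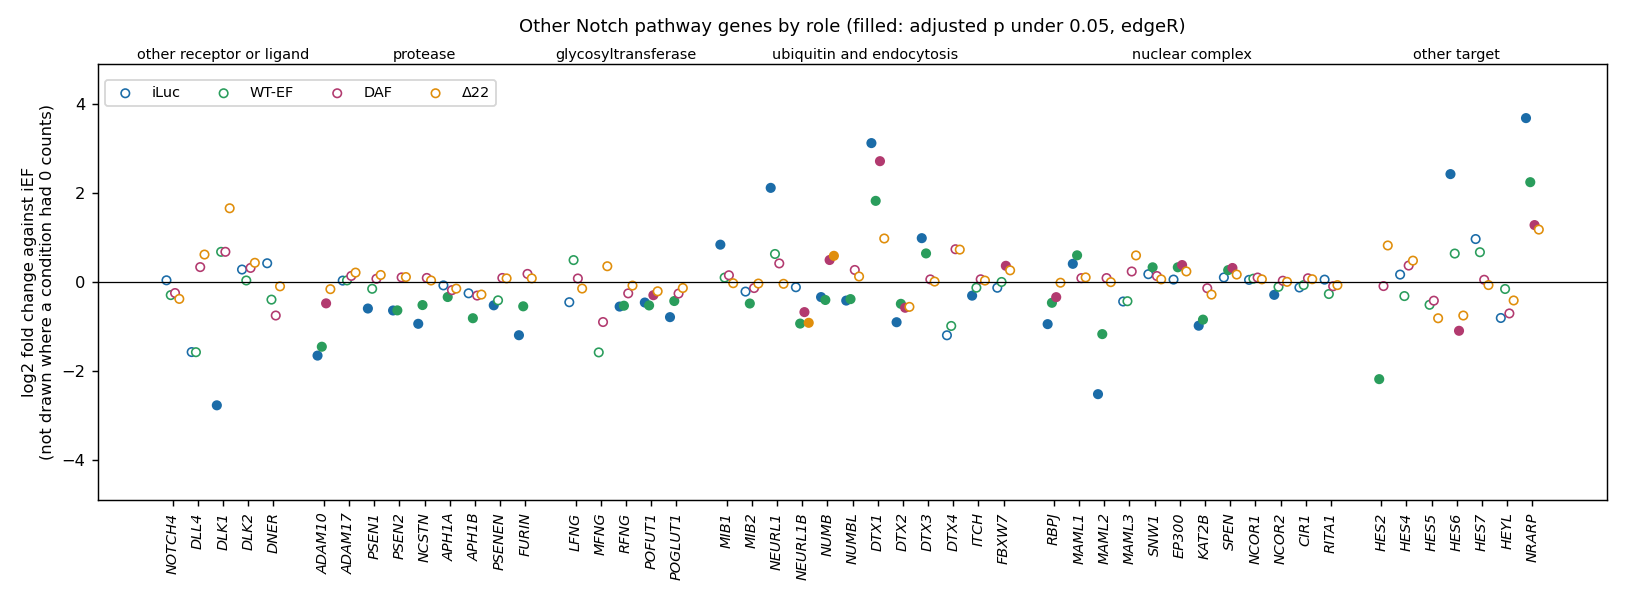
Log2 fold change against iEF (vertical axis) of the other Notch pathway genes by role, in iLuc, WT-EF, DAF and Δ22, with filled points for called genes. The proteases with filled iLuc or WT-EF points all lie below 0, and NRARP lies above 0 in all 4 conditions.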

How the data were processed

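RNA-seq (ScriptSeq libraries, paired-end) was analysed for 15 libraries of A673 cells, 5 conditions of 3, grouped by the deposited labels. The authors aligned reads to hg19 with STAR (version 2.5.1b per the labels) and ran htseq-count (intersection-strict). The deposited counts are whole numbers with no normalization. A deposited second table holds scores, the counts of 27002 genes after the authors' ComBat adjustment for replicate sets (decimal values), and served as an alternative. That table also holds the authors' log2 fold changes and adjusted p-values from DESeq2, which were not used, and 3 columns of other samples were left out.

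Here, gene identifiers were matched to symbols for 55538 of 57820 genes. Counts of genes averaging at least 1 count per library (28793 genes) were normalized by TMM and fitted in edgeR 4.0.16 (R 4.3.3) with 1 quasi-likelihood model over 15 libraries. Replicate number was a block because the authors adjusted each set of replicates for batch. Deviations of same-numbered libraries correlated with a median of 0.185 over 30 pairs (21 above 0.1), against -0.084 over 60 other pairs. The correlation was uneven between conditions. DAF with Δ22 gave 0.75, 0.71 and 0.78 for replicates 1, 2 and 3, and iLuc with iEF 0.15, 0.13 and 0.04. WT-EF gave 0.39, -0.11 and -0.18 with iEF, and 0.34, 0.13 and -0.09 with iLuc. CPM are counts over the TMM-scaled library total, and levels per kb use GENCODE exon lengths on GRCh37, which need not be the annotation of the counting. Library totals ranged from 28659475 to 41859880, and replicates differed by more than counting noise (mean chi-square per gene 16.7 to 111 over 15 pairs). The labels do not say that replicates came from separate cultures, so p-values measure the spread between these libraries. Floors and exact intervals (95%) cover counting error only.

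Alternatives were DESeq2 size factors, library totals, no or another filter, DESeq2 1.42.0, limma 3.58.1 on log2 ComBat values with a pseudocount of 1, no block, the 6 libraries compared, and leaving out libraries. All 10 genes were named, with the 2 genes per role of the other pathway genes that had the widest iLuc difference at 50 or more counts on average. The genes and lists were chosen with earlier results of these data known.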

Additional observations from a re-analysis of the deposited data

How the results depend on the processing

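Of 21 called pairs of gene and comparison, 12 were called in each of 17 alternatives and 0 changed sign. These were NOTCH2, NOTCH3, JAG1, JAG2 and HEY1 in iLuc against iEF, NOTCH2, JAG1 and JAG2 in WT-EF against iEF and in WT-EF against DAF, and HEY1 in WT-EF against iLuc. Of 49 uncalled pairs, 12 were called in some alternative and 17 changed sign in some. The number of genes higher among the 10 was 2 in WT-EF against iEF and the number lower was 0 in WT-EF against iLuc with no replicate block. With no filter, 1 was higher in Δ22 against iEF, 2 in WT-EF against iLuc and 2 in WT-EF against DAF, and 1 was lower in DAF against Δ22. DESeq2 gave 1 higher in Δ22 against iEF. Limma on ComBat-adjusted values gave 1 higher in DAF against iEF and 2 in WT-EF against DAF, and library totals gave 2 there. In a fit of 6 libraries, 1 was higher in Δ22 and 1 in DAF against iEF, 2 were higher in WT-EF against DAF and 1 was lower (JAG1) in DAF against Δ22.

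Of the 50 other genes, library totals gave 11 higher in iLuc, 11 higher and 10 lower in WT-EF, 0 lower in Δ22 and 3 lower in DAF against iEF. ComBat-adjusted values gave 11 higher in iLuc, 11 lower in WT-EF, 0 lower in Δ22 and 1 lower in DAF against iEF, and 0 higher in DAF against Δ22. In Δ22 against iEF, 3 were higher with no filter, 2 higher and 2 lower with DESeq2, and 0 lower with no replicate block or in a fit of 6 libraries. In DAF against Δ22, 1 was lower with no filter, with filterByExpr or with DESeq2, 0 were higher with no replicate block, and 2 were higher and 4 lower in a fit of 6 libraries.

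Leaving out libraries, the number of the 10 genes that were higher ranged from 3 to 6 in iLuc against iEF (3 without iLuc replicate 2, iEF replicate 1 or 3, or replicate 1 or 2 of all conditions), from 1 to 3 in WT-EF against iEF (1 without iEF replicate 1), from 0 to 1 in Δ22 against iEF, and from 1 to 2 in WT-EF against iLuc and WT-EF against DAF. The number lower in WT-EF against iLuc ranged from 0 to 4. For the other genes, in iLuc against iEF 6 to 8 were higher and 12 to 18 lower, in WT-EF against iEF 4 to 8 and 9 to 16, in Δ22 against iEF 0 to 2 and 0 to 1, in DAF against iEF 1 to 5 and 0 to 3, in WT-EF against iLuc 2 to 12 and 1 to 8, in WT-EF against DAF 3 to 4 and 8 to 14, and in DAF against Δ22 0 to 0 and 0 to 0. The causes of these changes were not tested, except that leaving out libraries leaves fewer of them. HEY2 and DLL3 had at most 16 and 29 counts a library.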

Other observations

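For the 3 genes of the 10 with the widest range of condition means, the genes with the most similar pattern were found among 13178 genes, by the root mean square difference of centered log2 condition means over the 5 conditions. The measure describes these 15 libraries and has no test. Nearest to JAG2 were LRATD2, PLPPR3 and CACNA1G, at 0.107, 0.112 and 0.122, where the median over all genes was 1.38. Nearest to HEY1, which was low in iLuc alone, were WAKMAR2, OTOGL and SLC44A5, at 0.067, 0.112 and 0.190 against a median of 1.12. Nearest to JAG1 were CFAP54, WARS1 and LINC00472, at 0.074, 0.128 and 0.130 against a median of 0.96.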
